A study of Mus musculus with 12 samples.

Results

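The 9 genes described here encode the intracellular equipment through which a corticosteroid acts, together with the enzyme that supplies its ligand. They are the corticosteroid receptors Nr3c1 and Nr3c2, the ligand-activating enzyme Hsd11b1, the immunophilins Fkbp5 and Fkbp4, the cytosolic Hsp90 isoforms Hsp90aa1 and Hsp90ab1, and the Hsp90 cochaperones Ptges3 and Stip1. Their rows were taken by symbol, and the genes were chosen with earlier results of these data known. Each of the 9 had 1 row among the 24918 genes of the table, and all 9 were among the 14721 genes with a high enough value to be tested. RNA of whole mouse hearts was sequenced in 12 libraries, 3 in each of 4 groups, to ask which transcripts differ when cardiomyocytes lack the glucocorticoid receptor and whether that depends on sex. All 12 libraries came, per the labels, from untreated mice that were 2 months old, on a C57BL/6 background. By their titles the floxed mice are homozygous for a loxP-flanked receptor gene (GRloxP/loxP) and carry no Cre. The cardioGRKO mice have the same homozygous floxed allele and 1 copy of αMHC-Cre, a transgene that expresses the recombinase from the promoter of the cardiac alpha myosin heavy chain gene and so in cardiomyocytes. Other heart cells keep the receptor gene, and in whole heart RNA fewer cells of a type cannot be told apart from less RNA per cell. Because only cardioGRKO mice carry Cre, what the transgene does and what the deletion does cannot be told apart. The genotype field reads wild-type for all 12 libraries, so the groups rest on the titles.

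Cortisol and corticosterone enter the cell and bind a receptor held ready by chaperones. The receptor is folded by Hsp70, handed to Hsp90 through the adaptor Stip1 (also called Hop) and held in its ligand-binding shape by Hsp90 with p23, the product of Ptges3. The immunophilins Fkbp5 and Fkbp4 compete for the same place on Hsp90: Fkbp5 keeps the receptor in the cytosol with low affinity for its hormone, while Fkbp4 links it to dynein for transport to the nucleus. Fkbp5 is itself a classical target of the receptor, and its induction lowers the sensitivity of the cell to hormone. Hsd11b1 turns the inactive 11-keto steroid back into active hormone inside the cell, and in the heart the mineralocorticoid receptor Nr3c2 also binds glucocorticoids, since little of the protective enzyme Hsd11b2 is made there.

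Values are log2 expression after normalization by the authors, and sequencing depth cannot be read from them. The spread within groups was small, with a median SD between libraries of 0.028 in male floxed hearts. Nothing in the labels says whether a group's libraries came from separate animals, so every p measures their spread, which could be only technical. Every adjusted p below is from limma, a linear model fitted across all genes tested, with two-sided p-values adjusted by the Benjamini-Hochberg method over those genes and called under 0.05. The cardiac myosin Myh6 had a mean log2 value of 19.47 in male floxed libraries, and all 10 cardiomyocyte markers were present in every group. The total level of Nr3c1 was higher, not lower, in the libraries labelled female cardioGRKO than in those labelled female floxed. Libraries labelled female are therefore named by their labels throughout. The summed linear level of 11 surface epithelium markers ran from 1363 to 35730 in the libraries labelled female floxed and from 965.1 to 1426 in the other groups. The high values belong to female floxed 1 and 2, and a result is also given without this pair where that ends its call or moves it by over 1.5 times.

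Marker lists of several other cell types also moved with the groups. In males, though, 0 of the 8 macrophage and 0 of the 11 surface epithelium markers were called (macrophages had 1 higher and 2 lower at an unadjusted p under 0.05 in limma). The 7 smooth muscle and pericyte markers had 1 call higher and 5 lower in males, and 2 higher and 4 lower under the female labels. The 7 atrial muscle markers summed to between 30210 and 30700 in male floxed libraries, 139000 and 139900 in male cardioGRKO, 108700 and 112300 in those labelled female floxed, and 51940 and 52920 in those labelled female cardioGRKO. None of the lists had a marker at 0 in all libraries. All 7 atrial markers were called higher in male cardioGRKO hearts, and all 7 lower in the libraries labelled female cardioGRKO, so the amount of atrial tissue taken along cannot be told apart from the groups. In males the 8 endothelial markers had 1 call higher and 7 lower, with a median change of -0.15, and the 9 fibroblast markers had 6 calls higher and 0 lower (1 lower at an unadjusted p under 0.05 in limma). Under the female labels these ran the other way: endothelium had 5 calls higher and 1 lower, with a median change of 0.11, and fibroblasts 1 higher and 5 lower, with a median of -0.072. The 10 cardiomyocyte markers had 0 calls higher and 7 lower in males, with a median change of -0.16 (0 higher and 8 lower at an unadjusted p under 0.05 in limma). Under the female labels they had 3 calls higher and 1 lower, with a median of -0.0065. Over all tested genes, limma called 27.4% in males and 29.3% in the libraries labelled female. The part of these marker lists in the results below was not tested.

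Across the genotypes, 5 of the 9 genes were called in males and 6 of the 9 in the libraries labelled female, with a different balance of directions. In male hearts 1 rose (Hsp90aa1) and 4 fell (Nr3c1, Hsd11b1, Fkbp5 and Fkbp4), where limma called 27.4% of all tested genes, 12.8% higher and 14.6% lower. After quantile normalization the male split was 2 higher and 3 lower, and after median centring 4 were called, all lower. Among those labelled female 5 rose (Nr3c1, Fkbp4, Hsp90aa1, Hsp90ab1 and Stip1) and 1 fell (Fkbp5), where 29.3% of all tested genes were called, 15.2% higher and 14% lower. Of the 9 genes, 4 were called in both, of which Fkbp5 was lower in both, Hsp90aa1 was higher in both, and Nr3c1 and Fkbp4 moved in opposite directions. Nr3c2 and Ptges3 were called in neither. The share of all tested genes called in both or in neither was not computed, so these counts have none beside them. The median size of the change among the 9 genes was 0.056 in males, against 0.041 over all tested genes, and 0.14 against 0.043 in the libraries labelled female. The 3 libraries of one genotype lay wholly above or below those of the other for 5 of the 9 genes in males, where 41.4% of tested genes did so, and for 7 of 9 in those labelled female, where 40.7% did.

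**Figure D1:**
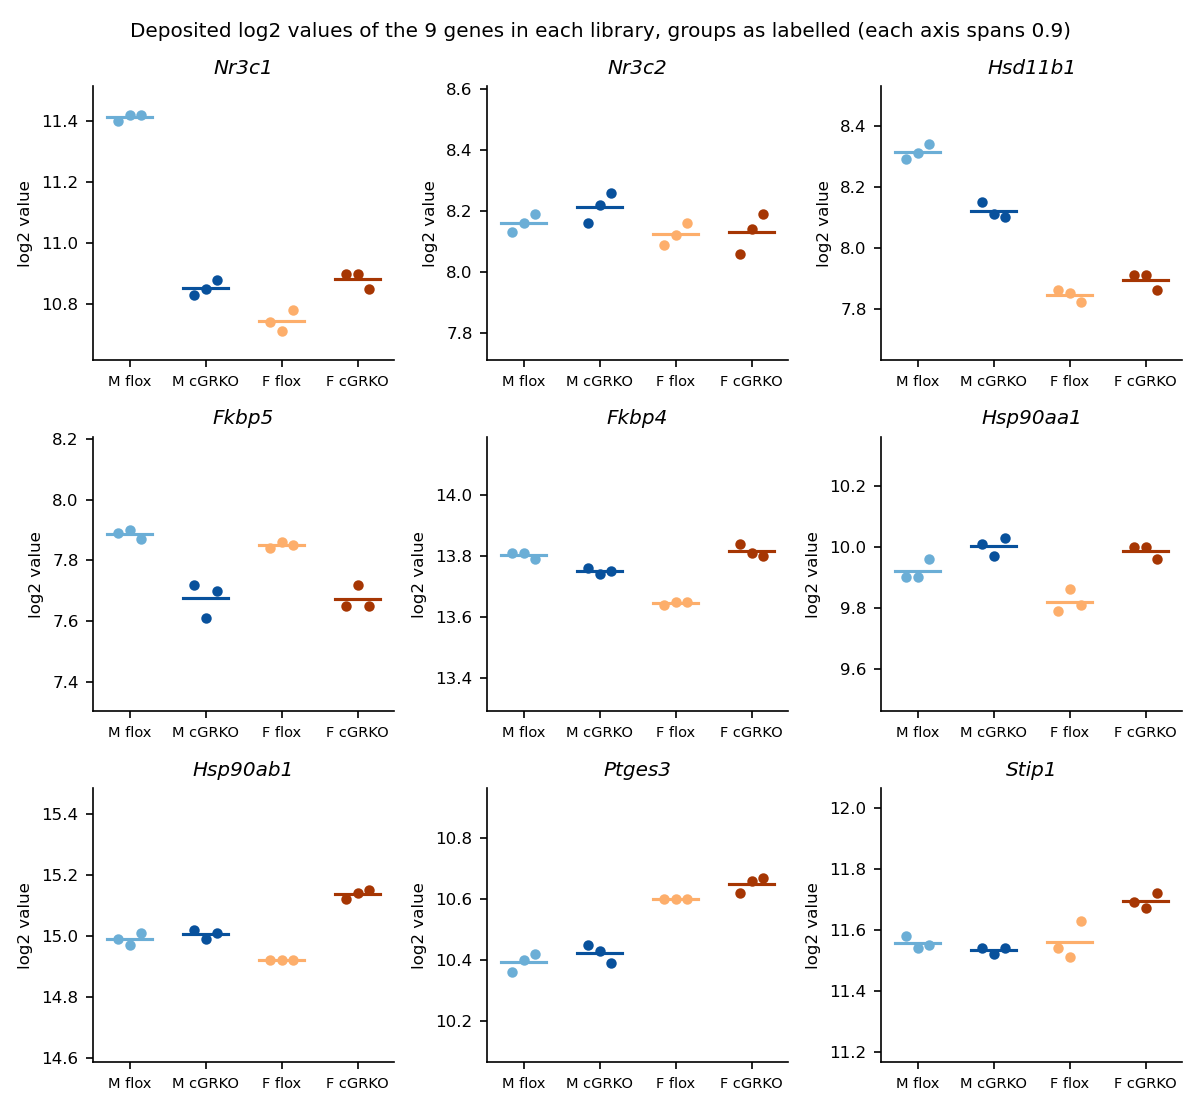
Deposited log2 expression of each of the 9 genes (y axes, log2 units) in the 12 libraries, by group as labelled (x axes), with points for libraries and a line for each group mean. Nr3c1 is highest in the 3 male floxed libraries, at 11.40 to 11.42, and Fkbp5 is lower in both cardioGRKO groups.

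Nr3c1 (Entrez 14815) encodes the glucocorticoid receptor and is the gene targeted here. Its log2 values were 11.40, 11.42 and 11.42 in the male floxed libraries and 10.83, 10.85 and 10.88 in the male cardioGRKO libraries. Those labelled female floxed had 10.74, 10.71 and 10.78, and those labelled female cardioGRKO 10.90, 10.90 and 10.85. The male floxed libraries thus stood alone at the top, and the lowest of the 4 groups was the one labelled female floxed, in which the gene should be intact. In males the change was -0.56 (SE 0.024, limma adjusted p = 2.4e-11), which leaves 67.8% of the floxed level in whole heart. Under the female labels it was 0.14 (SE 0.024, limma adjusted p = 0.00038), a 1.1-fold higher level in those labelled cardioGRKO. Each value covers a whole gene, and the titles do not say which exons the loxP sites flank. Transcripts that lack only the flanked part may still be counted, so the total need not measure the deletion in either sex. Between the libraries labelled cardioGRKO of the sexes, the difference was 0.030 (SE 0.024, limma adjusted p = 0.41), with a 95% interval from -0.021 to 0.081. Whether the libraries labelled female hold the genotypes of their titles was not tested.

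Nr3c2 (Entrez 110784), the mineralocorticoid receptor, is the closest relative of Nr3c1 and binds the same hormones. Its log2 values were 8.13, 8.16 and 8.19 in male floxed hearts and 8.16, 8.22 and 8.26 in male cardioGRKO hearts. With female labels they were 8.09, 8.12 and 8.16 in the floxed group and 8.06, 8.14 and 8.19 in the cardioGRKO group. The 4 groups overlapped at every step of their order. The change was 0.056 in males (95% interval -0.018 to 0.13, limma adjusted p = 0.27) and 0.0073 in the libraries labelled female (95% interval -0.066 to 0.081, limma adjusted p = 0.90). A rise above 1.1-fold lies outside both intervals, but these rest on the spread between libraries, which could be only technical. The kind of log transform is also unstated, so a larger rise between animals is not excluded. Only the comparison of the sexes within cardioGRKO came near the threshold, at -0.087 (SE 0.035, limma adjusted p = 0.083), and it passed without male cardioGRKO 1 (-0.11, limma adjusted p = 0.049) or without female cardioGRKO 3 (-0.12, limma adjusted p = 0.033).

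Levels of different genes can be set against each other only per length, here as the linear value per kilobase of exon. On that scale Nr3c1 stood at 417 ± 4.4 (SD, n = 3) in male floxed hearts and 283 ± 5.3 in male cardioGRKO hearts, and Nr3c2 at 46.3 ± 0.83 and 48.1 ± 1.6. The level of Nr3c2 was therefore 11.1% ± 0.13 of that of Nr3c1 in male floxed hearts and 17.0% ± 0.28 in male cardioGRKO hearts. It was 17.2% ± 0.38 in the group labelled female floxed, and in that labelled female cardioGRKO 15.7% ± 0.98. The ratio was lowest in male floxed hearts, where Nr3c1 was highest, and Nr3c2 itself was called in neither comparison of genotype.

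Hsd11b1 (Entrez 15483) encodes the reductase that regenerates active glucocorticoid inside the cell. Its log2 values were 8.29, 8.31 and 8.34 in male floxed and 8.15, 8.11 and 8.10 in male cardioGRKO libraries. Libraries labelled female had 7.86, 7.85 and 7.82 in the floxed group and 7.91, 7.91 and 7.86 in the cardioGRKO group. Both male groups lay above both groups labelled female, and only the groups labelled female overlapped. The gene fell by 0.19 in male cardioGRKO hearts (SE 0.027, limma adjusted p = 3.6e-05), to 87.6% of the floxed level. Under the female labels the change was 0.050 (95% interval -0.0071 to 0.11, limma adjusted p = 0.18), and the difference between the sexes in the response was -0.24 (SE 0.038, limma adjusted p = 0.00011). The level in the libraries labelled female floxed was 72.2% of that in male floxed libraries (log2 difference -0.47, SE 0.027, limma adjusted p = 4.7e-10). Adipocytes are known for this enzyme. Their 7 markers summed to between 24180 and 24970 in male floxed libraries and 19520 and 19540 in male cardioGRKO. The sums were between 19180 and 20280 in those labelled female floxed and 21940 and 22530 in those labelled female cardioGRKO. Adipoq, the first marker, had mean log2 values of 6.73, 6.69, 6.45 and 6.90 in these 4 groups in turn, so other markers carried nearly all of each sum. The part of adipocytes was not tested.

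H6pd supplies the NADPH in the endoplasmic reticulum that Hsd11b1 needs to run as a reductase. It fell with Hsd11b1 in male cardioGRKO hearts, from log2 values of 10.35, 10.36 and 10.36 to 10.25, 10.24 and 10.22 (change -0.12, SE 0.026, limma adjusted p = 0.0019). With female labels it was higher in the cardioGRKO group, at 10.22, 10.29 and 10.20 against 10.12, 10.09 and 10.07 (change 0.14, SE 0.026, limma adjusted p = 0.00056). The response differed between the sexes by -0.26 (SE 0.037, limma adjusted p = 3e-05). Hsd11b2, the opposing enzyme that inactivates glucocorticoid, lay between 2.70 and 2.73 in every library and was below the level tested.

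Of 23 genes of corticosteroid synthesis, breakdown and transport, 9 were tested and 14 lay below the level tested. Among the latter, Cyp11b1, which makes corticosterone from its precursor in the adrenal, and Akr1d1, a reductase that breaks it down, were listed at 0 in all 12 libraries, and the aldosterone synthase Cyp11b2 at -1.96 in each group. In males 1 of the 9 rose and 3 fell, with a median change of -0.029 against -0.0021 over all genes, of which 27.4% were called. The transporter Abcb1a, which pumps steroids out of the cell, fell by 0.19 (SE 0.035, limma adjusted p = 0.00043), and Akr1c14, which reduces steroids at the third carbon, fell by 0.15 (SE 0.028, limma adjusted p = 0.00054). Abcc1, another exporter, rose by 0.12 (SE 0.023, limma adjusted p = 0.00079). Under the female labels 1 of the 9 rose, H6pd, and 0 fell in limma (2 higher and 0 lower at an unadjusted p under 0.05). Of all tested genes, 29.3% were called there. There were 2 calls higher after quantile normalization, with the replicate block, and without male floxed 1, male cardioGRKO 1 or female floxed 2.

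**Figure D2:**
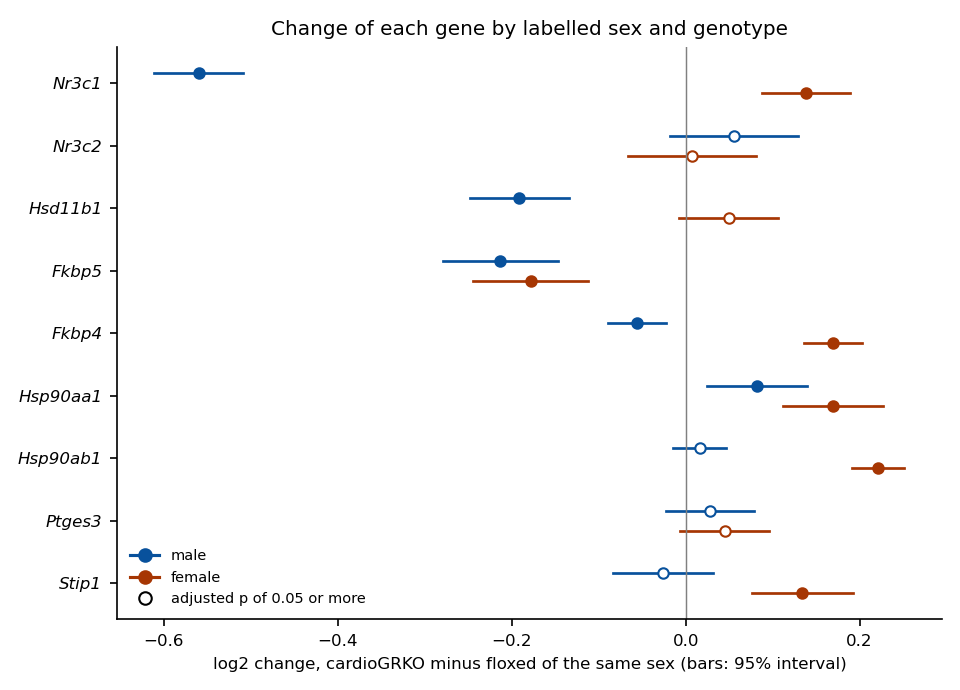
Log2 change of each of the 9 genes (x axis, cardioGRKO minus floxed, log2 units) in males (blue) and in the libraries labelled female (red). Points are limma estimates from 3 libraries a group and bars their 95% intervals, with open points at an adjusted p of 0.05 or more: Fkbp5 is left of 0 in both, and Nr3c1 at -0.56 in males and 0.14 in the libraries labelled female.

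The immunophilins Fkbp5 and Fkbp4, which take opposite parts in receptor transport, behaved unlike each other. Fkbp5 (Entrez 14229) was at 7.89, 7.90 and 7.87 in male floxed and 7.72, 7.61 and 7.70 in male cardioGRKO libraries. Values in the libraries labelled female were 7.84, 7.86 and 7.85 in the floxed group and 7.65, 7.72 and 7.65 in the cardioGRKO group. Every library of both cardioGRKO groups lay below every floxed library of either sex. It was the only one of the 9 genes called lower in both, at -0.21 in males (SE 0.031, limma adjusted p = 5.8e-05) and -0.18 in the libraries labelled female (SE 0.031, limma adjusted p = 0.00042). The responses differed by -0.035 (95% interval -0.13 to 0.058, limma adjusted p = 0.59). The libraries labelled female cardioGRKO thus had less Fkbp5 with more Nr3c1, and the change there was also -0.18 without female floxed 1 and 2.

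Fkbp4 (Entrez 14228) was far more abundant. Its log2 values were 13.81, 13.81 and 13.79 in male floxed, 13.76, 13.74 and 13.75 in male cardioGRKO, 13.64, 13.65 and 13.65 under the label female floxed and 13.84, 13.81 and 13.80 in those labelled female cardioGRKO. The group labelled female floxed was lowest and overlapped no other. In males it fell by 0.056 (SE 0.016, limma adjusted p = 0.012), to 96.2% of the floxed level, but after quantile normalization the change was 0.00081 with the opposite sign (limma adjusted p = 0.98), and the call was lost without male floxed 2 (limma adjusted p = 0.053) or male cardioGRKO 2 (limma adjusted p = 0.054). Fkbp4 rose by 0.17 in the libraries labelled female (SE 0.016, limma adjusted p = 5.1e-07), a 1.12-fold difference, and by 0.081 (limma adjusted p = 0.0014) after quantile normalization. The responses differed by -0.23 (SE 0.022, limma adjusted p = 5.9e-07), and by -0.080 (limma adjusted p = 0.013) after it. Per kilobase of exon the level of Fkbp5 was 0.562% ± 0.0018 of that of Fkbp4 in male floxed and 0.504% ± 0.018 in male cardioGRKO hearts, and 0.611% ± 0.0018 and 0.481% ± 0.016 in the corresponding libraries labelled female, and the ratio was lower in every cardioGRKO library than in any floxed library.

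Promoters of 6 of the 9 genes were taken by symbol from RefSeq (GRCm38.p6), and those of Nr3c1, Hsp90aa1 and Hsp90ab1 were not among them. The 250 bases before the start site are shown for 3 of them, 5′ to 3′ on the gene's strand: Fkbp5, lower in both sexes, and Fkbp4 and Stip1, both higher in the libraries labelled female cardioGRKO. Capitals mark matches to a heat shock element of a pair of units (GAANNTTC), the CCAAT box (CCAAT, or ATTGG on the other strand) and the TATA box (TATAAA). They are Fkbp5 at chr17:28486150-28486399 (minus strand), Fkbp4 at chr6:128438657-128438906 (minus strand) and Stip1 at chr19:7040027-7040276 (minus strand).
Fkbp5: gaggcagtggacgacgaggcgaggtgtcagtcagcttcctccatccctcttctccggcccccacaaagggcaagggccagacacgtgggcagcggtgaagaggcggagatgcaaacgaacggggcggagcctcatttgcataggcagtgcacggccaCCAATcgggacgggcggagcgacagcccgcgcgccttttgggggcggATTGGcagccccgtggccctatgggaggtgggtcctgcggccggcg
Fkbp4: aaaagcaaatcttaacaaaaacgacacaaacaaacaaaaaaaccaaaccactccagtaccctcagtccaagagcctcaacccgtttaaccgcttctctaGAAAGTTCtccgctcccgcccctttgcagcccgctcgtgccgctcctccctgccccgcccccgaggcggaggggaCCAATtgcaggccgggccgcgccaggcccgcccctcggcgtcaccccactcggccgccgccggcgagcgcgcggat
Stip1: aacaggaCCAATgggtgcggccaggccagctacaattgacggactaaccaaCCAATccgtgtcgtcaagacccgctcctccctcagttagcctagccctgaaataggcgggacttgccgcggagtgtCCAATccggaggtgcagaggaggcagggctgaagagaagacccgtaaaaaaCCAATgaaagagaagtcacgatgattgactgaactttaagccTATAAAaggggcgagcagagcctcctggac

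The Fkbp4 window holds GAAAGTTC at -151 and a CCAAT box at -76 from the start site. The Stip1 window holds 4 CCAAT boxes, at -243, -199, -123 and -72, and TATAAA at -30, and the Fkbp5 window holds CCAAT at -93 and ATTGG at -46. Of the matched genes not shown, Nr3c2, called in neither comparison of genotype, holds GAACTTTC at -151 and 3 CCAAT boxes. Hsd11b1 holds CCAAT at -72, and Ptges3 holds none of the motifs. The motifs thus did not go only with genes that changed. Among 32851 promoters of 300 bases, searched on both strands, GAANNTTC was in 7.86%, CCAAT in 37.4% with 4 or more in 1.06%, and TATAAA in 13.6%. The full palindromic glucocorticoid response element was in 0.475% of promoters and its shorter arm AGAACA in 19.0%, and neither was in the 300-base windows of the 6 matched genes, Fkbp5 included. No match in such a window says nothing of the receptor's binding elsewhere in a gene. The motifs were chosen after the sequences had been read, and no marked match overlaps another.

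The Hsp90 isoforms clamp the receptor in its hormone-binding state, Hsp90ab1 as the constitutive form and Hsp90aa1 as the more inducible one. Their coding sequences are identical at 76.3% of 2172 aligned bases. The 90 coding bases below, in exon 3 of each (GENCODE M21, GRCm38), show the differences by which reads of the isoforms can be told apart, and capitals mark the 19 bases that differ. The Hsp90aa1 stretch lies at chr12:110695236-110695325 and the Hsp90ab1 stretch at chr17:45571437-45571526, both on the minus strand, printed 5′ to 3′ on that strand.
Hsp90aa1: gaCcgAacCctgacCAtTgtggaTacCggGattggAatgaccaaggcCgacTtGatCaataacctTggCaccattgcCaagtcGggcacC
Hsp90ab1: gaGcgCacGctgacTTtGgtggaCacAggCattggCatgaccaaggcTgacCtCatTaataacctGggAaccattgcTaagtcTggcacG

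No stretch of 50 bases is shared between any of the 9 genes. Copies elsewhere share more with them, and 47.5% of the 50-base stretches of Hsp90aa1 transcripts also occur in transcripts of other genes, 41.8% in the pseudogene Gm12346, which holds all of the 90 bases shown. For Ptges3 the share was 19.6%, nearly all in Ptges3-ps, and for the other 7 genes it was at most 5.59%. The values of Hsp90aa1 and Ptges3 are uncertain to that extent, since the handling of reads that fit several places is not given in the sources used here.

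Hsp90ab1 (Entrez 15516) was the most abundant of the 9 per length. Its log2 values were 14.99, 14.97 and 15.01 in male floxed and 15.02, 14.99 and 15.01 in male cardioGRKO libraries, which overlapped. All 3 labelled female floxed were at 14.92, and in those labelled female cardioGRKO they were 15.12, 15.14 and 15.15. These were the lowest and the highest groups. The change was 0.016 in males (95% interval -0.014 to 0.047, limma adjusted p = 0.47) and 0.22 in the libraries labelled female (SE 0.014, limma adjusted p = 8.6e-09), a 1.17-fold rise. The responses differed by -0.21 (SE 0.020, limma adjusted p = 6.8e-07). After quantile normalization, which gives all libraries 1 distribution of values, the male change was 0.10 (limma adjusted p = 5.6e-05), the rise in the libraries labelled female 0.13 (limma adjusted p = 6.5e-06) and the difference between the sexes -0.028 (limma adjusted p = 0.34).

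Hsp90aa1 (Entrez 15519) was at 9.90, 9.90 and 9.96 in male floxed and 10.01, 9.97 and 10.03 in male cardioGRKO libraries. Those labelled female floxed were at 9.79, 9.86 and 9.81, and those labelled female cardioGRKO at 10, 10 and 9.96. The cardioGRKO libraries lay above the floxed libraries in both. The rise was 0.082 in males (SE 0.027, limma adjusted p = 0.032) and 0.17 in the libraries labelled female (SE 0.027, limma adjusted p = 0.00019). The male call was lost after median centring (0.072, limma adjusted p = 0.057) and without male floxed 1 or 2 (limma adjusted p = 0.10 each) or male cardioGRKO 1 or 3 (limma adjusted p = 0.086 and 0.13). The difference between the responses was -0.087 (SE 0.038, limma adjusted p = 0.096). Per kilobase, Hsp90aa1 stood at 2.22% ± 0.026 of Hsp90ab1 in male floxed hearts, 2.33% ± 0.036 in male cardioGRKO, and 2.17% ± 0.050 and 2.10% ± 0.058 in the corresponding libraries labelled female, so nearly all cytosolic Hsp90 transcript was counted as the constitutive form.

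Stip1 (Entrez 20867) carries the receptor from Hsp70 to Hsp90. Its log2 values were 11.58, 11.54 and 11.55 in male floxed and 11.54, 11.52 and 11.54 in male cardioGRKO libraries. In the libraries labelled female they were 11.54, 11.51 and 11.63 in the floxed group and 11.69, 11.67 and 11.72 in the cardioGRKO group. Female floxed 3 stood apart from the pair with epithelial transcripts, toward the cardioGRKO libraries. The change was -0.026 in males (95% interval -0.084 to 0.032, limma adjusted p = 0.55). In the libraries labelled female it was 0.13 (SE 0.027, limma adjusted p = 0.0015), but 0.060 (limma adjusted p = 0.22) without female floxed 1 and 2, which leaves 1 floxed library that is assumed to vary like the other groups. The difference between the sexes, -0.16 (SE 0.039, limma adjusted p = 0.0043), likewise became -0.086 (limma adjusted p = 0.11). The rises of Fkbp4, Hsp90aa1 and Hsp90ab1 in the libraries labelled female were 0.17, 0.18 and 0.22 without that pair and all 3 were called.

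Ptges3 (Entrez 56351), whose product p23 closes the mature complex, followed another pattern. It was at 10.36, 10.40 and 10.42 in male floxed, 10.45, 10.43 and 10.39 in male cardioGRKO, 10.60 in all 3 libraries labelled female floxed, and 10.62, 10.66 and 10.67 in those labelled female cardioGRKO. All 6 libraries labelled female lay above all 6 male libraries. The genotype changes were 0.028 in males (95% interval -0.023 to 0.079, limma adjusted p = 0.45) and 0.045 in the libraries labelled female (95% interval -0.0061 to 0.096, limma adjusted p = 0.18), although the latter groups did not overlap. The difference between the sexes was 0.21 in floxed (SE 0.024, limma adjusted p = 2.7e-06) and 0.22 in cardioGRKO libraries (SE 0.024, limma adjusted p = 3.4e-06).

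Between the floxed groups, libraries labelled female had lower levels of 5 of the 9 genes (Nr3c1, Hsd11b1, Fkbp4, Hsp90aa1 and Hsp90ab1) and a higher level of 1 (Ptges3), where 44.2% of all tested genes were called. For Hsp90ab1 the difference was -0.071 (SE 0.014, limma adjusted p = 0.00075), but 0.12 with the opposite sign after quantile normalization (limma adjusted p = 8.4e-06), and for Fkbp4 it was -0.16 (SE 0.016, limma adjusted p = 4.6e-07), but -0.039 (limma adjusted p = 0.063) after it. Between the cardioGRKO groups, 4 were higher in the libraries labelled female (Fkbp4, Hsp90ab1, Ptges3 and Stip1) and 1 was lower (Hsd11b1), where 24.2% of all tested genes were called. Stip1 differed there by 0.16 (SE 0.027, limma adjusted p = 0.00032) and Hsp90ab1 by 0.13 (SE 0.014, limma adjusted p = 3.6e-06). Fkbp4 differed by 0.069 (SE 0.016, limma adjusted p = 0.004), which was 0.041 (limma adjusted p = 0.074) after quantile normalization. Hsd11b1 differed by -0.23 (SE 0.027, limma adjusted p = 1e-05). The difference between the sexes in the response to genotype was called for 5 of the 9 genes (Nr3c1, Hsd11b1, Fkbp4, Hsp90ab1 and Stip1), where 31.3% of all tested genes were called, and in each the male change was the lower one.

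**Figure D3:**
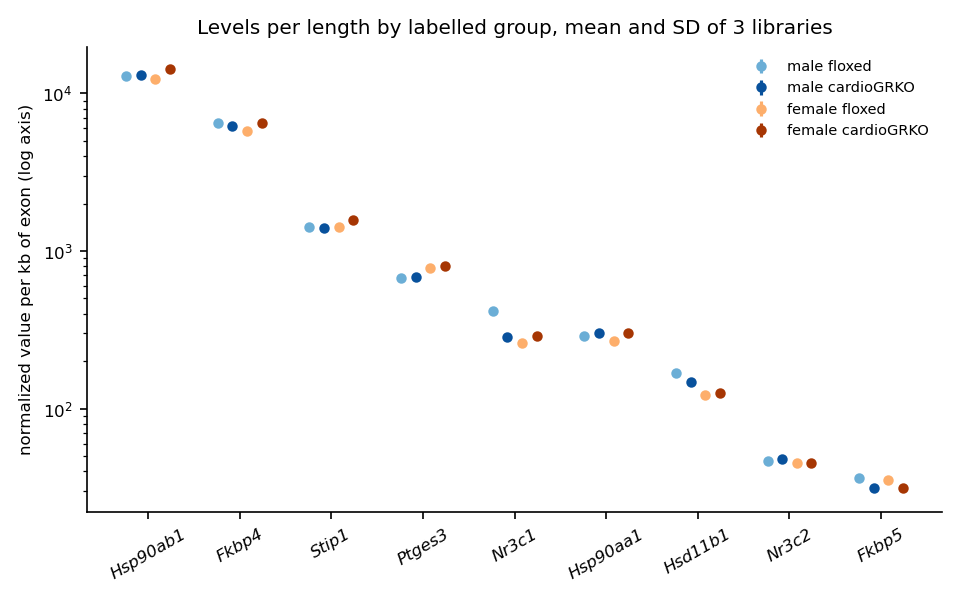
Normalized linear value per kilobase of exon (y axis, log scale) of the 9 genes (x axis, by level), as the mean and SD of 3 libraries in each of the 4 groups as labelled. In male floxed hearts the levels run from 12900 for Hsp90ab1 to 36.2 for Fkbp5.

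The 9 genes spanned a wide range per length. In male floxed hearts Hsp90ab1 stood at 12900 ± 190 linear units per kilobase of exon (SD, n = 3) and Fkbp4 at 6450 ± 67. Stip1 followed at 1430 ± 21 and Ptges3 at 674 ± 14, above Nr3c1 itself at 417 ± 4.4. Hsp90aa1 was at 287 ± 6.2, Hsd11b1 at 168 ± 2.7, Nr3c2 at 46.3 ± 0.83 and Fkbp5 at 36.2 ± 0.46. Hsp90ab1, Fkbp4, Stip1 and Ptges3 thus stood above the receptor they serve, and Hsp90aa1 below it. The place of Hsp90aa1 is uncertain, since 47.5% of its 50-base stretches also occur in transcripts of other genes. The restraining immunophilin Fkbp5 was the least abundant of the 9. Exon lengths came from GENCODE M21 (GRCm38), while the authors aligned to mm9, and the unstated kind of log transform limits this scale for low genes.

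A wider list of 30 genes of the receptor's chaperone cycle, besides the 9, had 1 call higher and 5 lower in males, with a median change of -0.016, against -0.0021 over all genes, of which 27.4% were called. The male split was 2 higher and 3 lower after quantile normalization, and 6 calls, all lower, after median centring. It had 8 higher and 3 lower in those labelled female, with a median of 0.042 against -0.00037 over all genes, of which 29.3% were called. In males Bag1, a nucleotide exchange factor of Hsp70 that binds the receptor, fell by 0.097 (SE 0.018, limma adjusted p = 0.00062). Dnajb1, an Hsp40 that loads Hsp70, fell by 0.16 (SE 0.033, limma adjusted p = 0.0013), and Ahsa1, the activator of Hsp90's ATPase, fell by 0.11 (SE 0.024, limma adjusted p = 0.0029). The call higher was Hspa2 (0.095, SE 0.033, limma adjusted p = 0.043), and it was lost after quantile normalization (limma adjusted p = 0.061). In the libraries labelled female the constitutive Hsp70 gene Hspa8 rose by 0.32 (SE 0.031, limma adjusted p = 7.2e-07), and its cochaperones Bag3 and St13 by 0.32 (SE 0.021, limma adjusted p = 7.8e-09) and 0.18 (SE 0.031, limma adjusted p = 0.00045). All 3 were also called without female floxed 1 and 2, Hspa8 at 0.23, Bag3 at 0.30 and St13 at 0.12.

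The heat-inducible Hsp70 genes moved the other way and rested on that pair. Hspa1b was at 6.84 and 7.0 in female floxed 1 and 2, and between 6.33 and 6.45 in the other 10 libraries. Its change of -0.32 in the libraries labelled female (SE 0.091, limma adjusted p = 0.014) became 0.018 (limma adjusted p = 0.79) without the pair, and that of Hspa1a, -0.16 (SE 0.051, limma adjusted p = 0.028), became -0.013 (limma adjusted p = 0.86). The 2 genes are near-identical copies, so reads may be split between them. Without the pair the 30 genes had 6 calls higher and 2 lower.

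**Figure D4:**
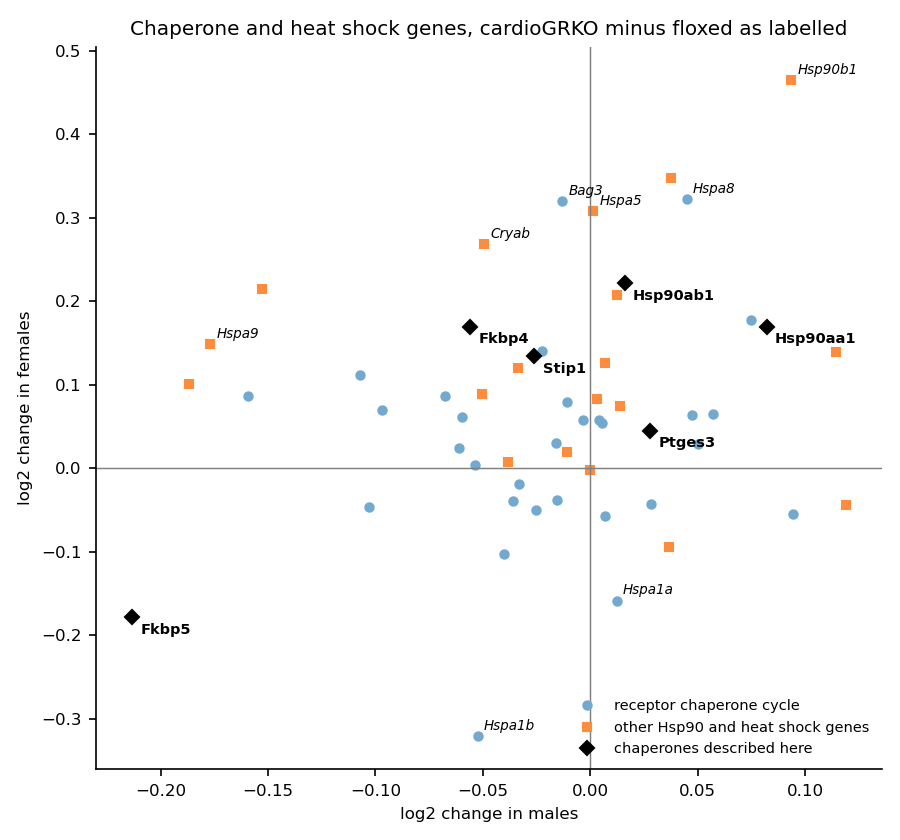
Log2 change with genotype in males (x axis) against that in the libraries labelled female (y axis) for 30 chaperone cycle genes (circles), 19 other Hsp90 and heat shock genes (squares) and the 6 chaperone and immunophilin genes among the 9 (diamonds). Each point is 1 gene, the difference of group means of 3 libraries each. Hsp90b1 is highest at 0.47, Fkbp5 is low on both axes, and Hspa1b at -0.32 rests on female floxed 1 and 2.

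Among 19 other Hsp90 and heat shock genes, 3 were called higher and 5 lower in males, with a median change of 0.0015. That balance turned to 8 higher and 3 lower after quantile normalization, with a median of 0.034. Over all tested genes, limma called 27.4% in males and 29.3% in the libraries labelled female. These shares are from the fit over 12 libraries, and none was computed for the alternatives. Under the female labels 13 were called higher and 1 lower, with a median change of 0.12, and without female floxed 1 and 2 there were 11 calls, all higher. The male falls included mitochondrial chaperones: Hspa9, the Hsp70 of the matrix, fell by 0.18 (SE 0.020, limma adjusted p = 4.1e-06), though by 0.066 (limma adjusted p = 0.02) after quantile normalization, and the chaperonin genes Hspd1 and Hspe1 by 0.15 (SE 0.026, limma adjusted p = 0.00024) and 0.19 (SE 0.035, limma adjusted p = 0.00058). All 3 rose in the libraries labelled female, Hspa9 by 0.15 (limma adjusted p = 4.1e-05), Hspd1 by 0.21 (limma adjusted p = 1e-05) and Hspe1 by 0.10 (limma adjusted p = 0.039), or by 0.18 (limma adjusted p = 0.0015) without female floxed 1 and 2. The largest rise of a named gene of this list there was that of Hsp90b1, the Hsp90 of the endoplasmic reticulum. It stood at 13.38, 13.35 and 13.44 in the floxed and 13.85, 13.90 and 13.82 in the cardioGRKO libraries (change 0.47, SE 0.025, limma adjusted p = 8e-10), and rose in males by 0.094 (SE 0.025, limma adjusted p = 0.0085). Hspa5, the Hsp70 of the same compartment, rose by 0.31 (SE 0.020, limma adjusted p = 8.4e-09) and the small heat shock gene Cryab by 0.27 (SE 0.017, limma adjusted p = 7.8e-09) in the libraries labelled female, the latter by 0.17 (limma adjusted p = 1.9e-06) after quantile normalization. The 5 genes Hsp90b1, Hspa5, Cryab, Hspa9 and Hspd1 were also called higher there without female floxed 1 and 2, at 0.41, 0.26, 0.29, 0.10 and 0.16.

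Over the 12 libraries, each of the 9 genes was set against all tested genes by Pearson correlation, as a description over 4 groups of libraries that share their source. Nr3c1 was most like Acss1 (r = 0.996), which makes acetyl-CoA from acetate in mitochondria, Myot (r = 0.995), a Z-disc protein, and Ckmt2 (r = 0.995), the mitochondrial creatine kinase of muscle. Hsd11b1 was most like Lama2 (r = 0.989), the laminin chain of muscle basement membrane, Slc25a12 (r = 0.986), a mitochondrial carrier, and Jph2 (r = 0.985), a junctional membrane protein of cardiomyocytes. Hsp90ab1 was most like Hspa5 (r = 0.981), Syt11 (r = 0.971) and Dnajb11 (r = 0.968), of which the first and the last are chaperones of the endoplasmic reticulum. Fkbp4 was most like Tmem66 (r = 0.975), Pck1 (r = 0.974) and Scd1 (r = 0.969). Fkbp5 was most like Ggta1 (r = 0.966), Stat3 (r = 0.942) and Coro1b (r = 0.933), and Hsp90aa1 like Shroom3 (r = 0.969), Vps37c (r = 0.965) and Eif3l (r = 0.954). Ptges3 was most like Pank2 (r = 0.965), Pdk4 (r = 0.961), the kinase that restrains pyruvate dehydrogenase, and Kdm5c (r = 0.96), an X-linked demethylase gene. For Stip1 they were Mdm1 (r = 0.93), Zfp954 (r = 0.927) and Ptpn14 (r = 0.927), and the weakest likeness was that of Nr3c2, to F2rl3 (r = 0.883), Zbtb5 (r = 0.875) and Mtdh (r = 0.868).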

How the data were processed

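RNA of 12 mouse heart libraries had been sequenced on a NextSeq500 after Trizol and RNeasy extraction and TruSeq V2 library preparation, per the labels. Per the submitters' processing notes, the authors used Trim Galore, TopHat2, mm9, HTSeq and DESeq2, with no versions given. The authors deposited 1 table of log2 values for 24918 genes; the kind of log transform is not given in the sources used here, and depth is unknown. Genes with a linear value of 10 or more (2 to the power of the log2 value) in at least 3 libraries (14721) were tested with limma 3.58.1 in R 4.3.3 (1 fit over 12 libraries, 8 residual degrees of freedom, eBayes with a trend). Symbols that had become dates (27) were restored.

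The 9 genes, the 6 pathway lists and the marker lists were chosen with earlier results of these data known. From each pathway list, up to 3 called genes a direction with the smallest p were picked, with Hsd11b2 and H6pd, and 3 genes most alike each of the 9. Not all genes picked from the pathway lists are named in the text. Hspd1 and Hspe1, Hspa9 and Hspa1a in the libraries labelled female and H6pd by library were also given. Lengths and 50-base stretches came from GENCODE M21 (GRCm38). Alternatives covered the filter, quantile normalization, median centring, the moderation, library weights, a minimum fold, the replicate block, fits within 1 sex and leaving out libraries. Scripts were tested on simulated data.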

Additional observations from a re-analysis of the deposited data

Results flagged for a closer look

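The response to genotype differed between the sexes as labelled, by limma's test of the difference itself (adjusted p under 0.05), for 5 of the 9 genes. As the male change minus that in the libraries labelled female, in log2 units, Nr3c1 differed by -0.70, with the male fall set against a higher level in the libraries labelled female cardioGRKO. Hsd11b1 differed by -0.24 and its partner in steroid reduction H6pd by -0.26. Fkbp4 differed by -0.23 and Hsp90ab1 by -0.21, and both rose in the libraries labelled female cardioGRKO; after quantile normalization the difference was -0.080 for Fkbp4 (limma adjusted p = 0.013) and -0.028 for Hsp90ab1 (limma adjusted p = 0.34). Stip1 differed by -0.16, and by -0.086 without female floxed 1 and 2, where it was not called. Total Nr3c1 was higher in the libraries labelled female cardioGRKO, while Fkbp5 changed by -0.18 there and by -0.21 in males. Of 28 glucocorticoid-induced genes, 7 were called higher and 15 lower there, where 15.2% of all tested genes were called higher and 14% lower. Whether these libraries hold the genotypes of their titles was not tested, so a difference of sex and a difference of labelling cannot be told apart here.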

How the results depend on the processing

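For the 9 genes, 944 values stayed on their side of the threshold under the alternatives. With the sign kept, 14 calls were lost and 3 gained, and 2 called values changed sign. Of the 944, 14 changed sign without being called in either fit, among them Nr3c2 in the libraries labelled female (-0.027 without female floxed 1 and 2, against 0.0073). The 2 called values that changed sign did so under quantile normalization. Fkbp4 in males became 0.00081 and also lost its call (limma adjusted p = 0.98). Hsp90ab1 between the floxed groups became 0.12 and was called with either sign. Of the 19 other Hsp90 and heat shock genes, 11 were called in males under it, with the balance reversed. With a minimum fold of 1.2 (limma's treat), 1 of the 9 genes was called in males, 0 in the libraries labelled female (0 at an unadjusted p under 0.05, against 6 in the fit without a minimum fold) and 1 for the difference between the sexes, Nr3c1 in both cases. Leaving out each library in turn gave 3 to 5 calls in males, 3 without male floxed 2, 6 to 6 in the libraries labelled female and 5 to 5 for the difference. The alternatives for list counts were chosen after seeing the data. Shares of all tested genes called were not computed under the alternatives, so list counts there have no share beside them.

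The replicate numbers share only a number: deviations from group means correlated between same-numbered libraries at 0.066, -0.056 and -0.031 in males and 0.093, -0.11 and 0.15 in those labelled female. With the replicate block within sex, 5, 6 and 5 of the 9 genes were called in males, in the libraries labelled female and for the difference. It ended the call of Hsp90aa1 between the floxed groups (limma adjusted p = 0.051) and that of Fkbp4 between the cardioGRKO groups (limma adjusted p = 0.11).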

Other observations

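Among 31 coactivators, corepressors and transport factors of the receptor, 3 were called higher and 8 lower in males (median change -0.0094) where 27.4% of all genes were called, and 6 higher and 6 lower in the libraries labelled female (median 0.0086), where 29.3% were. The male split was 4 higher and 5 lower after quantile normalization. In males Ipo13, an importin that carries the receptor into the nucleus, fell by 0.17 (SE 0.021, limma adjusted p = 1.2e-05), and Hexim1, which binds the receptor and restrains transcription, rose by 0.17 (SE 0.028, limma adjusted p = 0.00026). Calr, the calcium-binding chaperone, rose in both, by 0.10 in males (SE 0.018, limma adjusted p = 0.00038) and by 0.32 in the libraries labelled female (SE 0.018, limma adjusted p = 1.7e-09). Kpna1, an importin alpha, fell by 0.087 in males (limma adjusted p = 0.0032) and rose by 0.16 in the libraries labelled female (limma adjusted p = 1.7e-05). The coactivator Ppargc1a, known for mitochondrial biogenesis, fell by 0.19 in the latter (SE 0.022, limma adjusted p = 5.4e-06). Without female floxed 1 and 2 the list had 5 higher and 3 lower there.

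Of 4 tested genes of other steroid and estrogen-related receptors, Esrrb and Esrra fell in males, by 0.23 (SE 0.036, limma adjusted p = 9.6e-05) and 0.074 (SE 0.025, limma adjusted p = 0.035), and rose in the libraries labelled female, by 0.25 (SE 0.036, limma adjusted p = 6.4e-05) and 0.16 (SE 0.025, limma adjusted p = 0.00017). The male call of Esrra was lost after quantile normalization (-0.042, limma adjusted p = 0.27), and the male calls among the 4 dropped from 2 to 1 without each male library in turn except male floxed 1. Of 28 glucocorticoid-induced genes, 6 were called higher and 14 lower in males, with a median change of -0.061 against -0.0021 over all genes. Of all tested genes, 27.4% were called there, 12.8% higher and 14.6% lower. In the libraries labelled female 7 were called higher and 15 lower, with a median of -0.11 against -0.00037 over all genes. There 29.3% of all tested genes were called, 15.2% higher and 14% lower.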
